A study of Mus musculus with 30 samples.

Results

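Of the 8 GH males whose hippocampus was sequenced, the libraries of animals 1, 2 and 3 held little choroid plexus RNA, and those of animals 15, 16, 22, 23 and 24 held much more. The 3 libraries are called early and the 5 later here, after the animal numbers in their labels, which carry no dates. The members were chosen by these numbers with the levels of 5 choroid plexus markers already known (Ttr, Kl, Folr1, Clic6 and Enpp2), so every difference between the 3 and the 5 libraries is given as a description. Where counts of genes past a fit's threshold are given for this split, they too only describe it and are no test of it. They are 8 of the 30 libraries of the series.

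The study compared adult C57 BL/6J mice of both sexes that were housed singly from weaning (social isolation, SI) with group-housed (GH) controls. All 8 mice described here are GH males from cages shared with other mice until they were killed, and no mouse carried a transgene or received an agent. The whole hippocampus was dissected, frozen and sequenced from poly(A)-selected RNA, 1 library per mouse. The labels do not give cages, litters or dissection dates, so mice that shared them cannot be told apart from independent ones. Libraries that the choice did not use served for tests. They were 7 SI males (animals 7 and 8 against 25, 27, 33, 38 and 39) and 15 females (7 GH and 8 SI). SI males 7 and 8 were named as a check when the choice was made, so the split of the SI males is not independent of it.

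The choroid plexus is a sheet of secretory epithelium, folded over leaky capillaries, that hangs in the brain ventricles and makes cerebrospinal fluid. In the lateral ventricle it is attached beside the fimbria of the hippocampus. Its epithelial cells move ions and water from blood to fluid, carry vitamins and hormones, and secrete binding proteins, the best known being transthyretin. In such bulk tissue, fewer choroid plexus cells and less RNA per cell cannot be told apart.

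Total counts were 43713489 to 66575824 in the early libraries and 33433048 to 60402057 in the later ones, so the low choroid signal did not go with low depth. The position digit of the labels was 1, 3 and 3 in the early libraries and 3, 3, 2, 2 and 4 in the later ones. No 2 of the 8 libraries agreed within sampling noise (lowest chi-square per degree of freedom over 28 pairs, 15.5). Levels are given as CPM (counts scaled to a common library size, with TMM factors) and differences as the fitted log2 difference, early minus later, with its standard error (SE).

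The 5 markers were low in each early library and high in each later one. Ttr, which encodes the thyroid hormone and retinol carrier transthyretin, had 132, 57.3 and 20.7 CPM in animals 1, 2 and 3. In animals 15, 16, 22, 23 and 24 it had 1960, 2110, 1880, 2090 and 2070 CPM. The early libraries differed 6.36-fold among themselves and the later ones 1.12-fold, and the means of the 2 sets differed 28.9-fold. Ttr took 0.0129%, 0.00566% and 0.00208% of all counts in the 3 early libraries, against 0.193% to 0.214% in the later ones.

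Folr1, the folate receptor through which the choroid plexus supplies folate to the brain, had 1.81, 0.899 and 0.455 CPM in animals 1, 2 and 3 and 13.9, 17.1, 15.1, 18.4 and 15.8 CPM in the later libraries. Clic6, a chloride channel family member, had 5.17, 3.44 and 2.86 CPM against 25.8, 35.8, 43.7, 34.5 and 29.1 CPM. Both were highest in animal 1 among the early libraries, and neither overlapped between the sets.

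Enpp2, which encodes the lysophospholipase autotaxin, had 200, 175 and 124 CPM in the early libraries and 530, 690, 892, 674 and 662 CPM in the later ones. Kl, which encodes the anti-ageing hormone and FGF23 co-receptor klotho, had 16.5, 12.5 and 15.2 CPM against 42.8, 55.6, 74.9, 59 and 50.5 CPM. The means differed 4.14-fold for Enpp2 and 3.84-fold for Kl. Both genes are also known in other brain cells, Enpp2 in oligodendrocytes and Kl in neurons, and both kept a larger share of their later level than Ttr did.

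**Figure D1:**
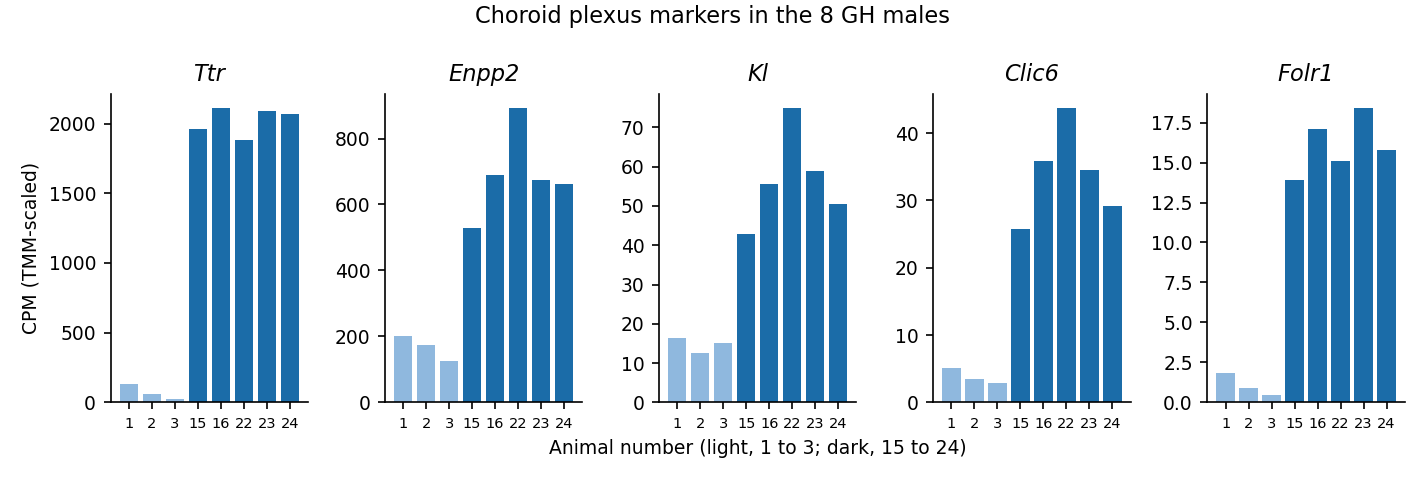
CPM (TMM-scaled, linear axes from 0) of the 5 markers used to choose the libraries in each of the 8 GH males, 1 bar per mouse, light for animals 1 to 3 and dark for animals 15 to 24. In every panel the 3 light bars lie below the 5 dark ones, with Ttr at 20.7 to 132 against 1880 to 2110 CPM.

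The mean log2 CPM of the 5 markers, called the choroid index here, was 4.40, 3.73 and 3.16 in animals 1, 2 and 3 (mean 3.76 ± 0.62, SD, n = 3). In animals 15, 16, 22, 23 and 24 it was 6.78, 7.11, 7.26, 7.13 and 6.98 (mean 7.05 ± 0.18, SD, n = 5). The early libraries therefore spread more on this scale than the later ones did. The markers were low but counted in all 3 early libraries, and none was at 0.

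Among libraries the choice did not use, SI males 7 and 8 had an index of 3.42 and 3.21, and SI males 25, 27, 33, 38 and 39 had 7.11, 6.65, 7.0, 6.99 and 6.39. The 2 sets differed by -3.51 in their means, and the groups did not overlap (p = 0.0952 two-sided, by exact permutation of the 21 splits, the smallest p this design allows). In the females, with animal numbers 41 to 79, the index was 5.90 to 8.52 in GH (median 7.0, n = 7) and 6.61 to 8.13 in SI (median 7.39, n = 8). The 5 libraries with the lowest animal numbers had the 5 lowest values of the 30, across both housing groups. Animals 1, 2 and 3 were chosen with these markers known. Animals 7 and 8 are not among the 8 chosen libraries, but they were named as a check together with that choice. Their low values are therefore not an independent test of it.

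**Figure D2:**
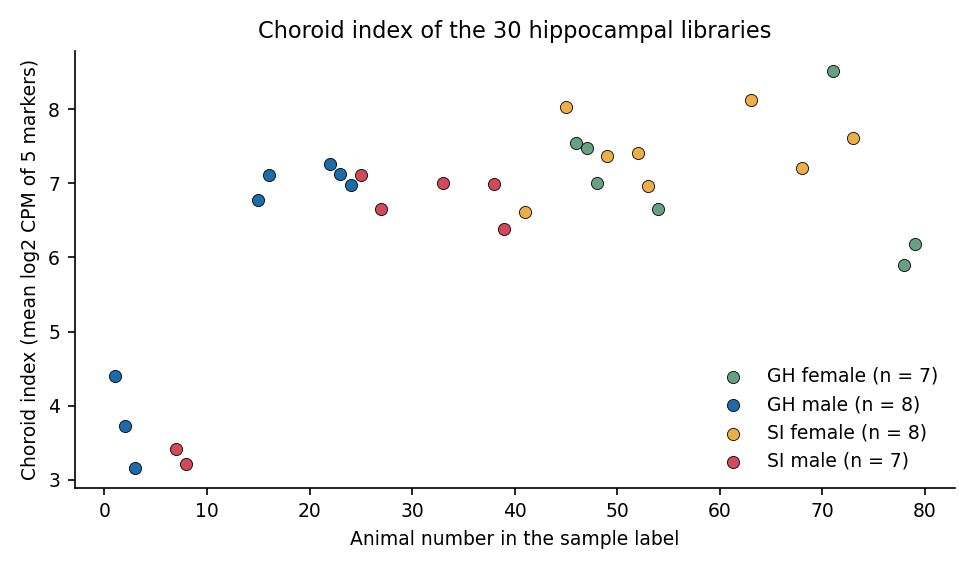
Choroid index (mean log2 CPM of Ttr, Kl, Folr1, Clic6 and Enpp2) of all 30 libraries against the animal number in the label, 1 point per mouse, coloured by group. The 5 mice numbered 1, 2, 3, 7 and 8 lie between 3.16 and 4.40, and the other 25 lie between 5.90 and 8.52.

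Of 49 choroid plexus genes in the lists used here, the 5 markers included, 10 had an early mean under 10% of the later mean, 29 had 10% to 50%, and 10 had 50% or more. Setting the 5 markers aside left 44 genes. All 3 early libraries lay below all 5 later ones for 37 of these 44 and above them for 0, where 3.3% of the 16322 genes fitted lay below and 1.76% above. The fit called 33 of the 44 lower in the early libraries (edgeR quasi-likelihood test, adjusted p under 0.05), where it called 0.809% of all genes lower. Their median difference was -2.10 on the log2 scale, against 0.01 over all genes. Nothing is read from these counts, since the libraries were chosen on choroid plexus genes.

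Genes for ion and water transport held the lowest remaining levels, with a median difference of -3.26 over 9 genes. Slc4a5, a sodium bicarbonate cotransporter of the fluid-facing membrane, had 0.781, 0.529 and 0.0682 CPM in animals 1, 2 and 3 and 8.51, 11.2, 15.9, 11 and 9.33 CPM in the later libraries (difference -4.50, SE 0.403). Kcne2, a potassium channel subunit, had 1.21, 0.476 and 0.273 CPM against 12.9, 11.7, 12.9, 13.8 and 15.2 CPM (-4.27, SE 0.316). Aqp1, the water channel of the epithelium, had 1.15, 0.529 and 0.295 CPM against 11.7, 14.1, 14.3, 12.9 and 12.2 CPM (-4.24, SE 0.286). In each of these 3 genes the order among the early libraries was animal 1, then 2, then 3.

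The tight junction protein gene Cldn2 (-3.42), the potassium channel gene Kcnj13 (-3.26) and the calcium channel gene Trpv4 (-2.40) also lay lower in each early library. The carbonic anhydrase gene Car12 (-0.43) and the plasma membrane calcium pump gene Atp2b3 (-0.21) overlapped between the sets. The potassium chloride cotransporter gene Slc12a4 did not overlap but differed by only -0.19. Atp2b3 had 110, 87.3 and 129 CPM in the early libraries and 104, 137, 174, 112 and 100 CPM in the later ones, and this gene is also known in neurons.

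Transporters of other solutes had a median difference of -1.58 over 9 genes, and 7 of the 9 did not overlap. The lactate transporter gene Slc16a8 differed by -2.85 and Abca4, a retinoid flippase gene, by -2.57. The zinc transporter gene Slc39a4 (-2.0), the sugar transporter gene Slc2a12 (-1.58) and the copper transporter gene Slc31a1 (-0.75) followed. The organic anion transporter gene Slc22a8 had 14.3, 8.64 and 8.52 CPM in the early libraries and 10.8 to 14.0 CPM in the later ones (-0.30), and animal 1 was above all 5 later mice.

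Secreted and matrix genes had a median of -1.70 over 11, of which 10 did not overlap. F5, coagulation factor V, had 1.73, 0.881 and 0.341 CPM in the early libraries and 7.95, 13.7, 18, 11.1 and 10.1 CPM in the later ones (-3.57, SE 0.400). 1500015O10Rik (Ecrg4), which encodes a secreted peptide precursor, had 3.72, 1.8 and 1.16 CPM against 25.3, 21.1, 20.4, 23.7 and 25 CPM (-3.33, SE 0.279). The Wnt and BMP inhibitor gene Sostdc1 differed by -2.49 and the collagen gene Col8a1 by -2.65.

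The growth factor gene Igf2 kept more of its level, with 107, 41.7 and 38.5 CPM in the early libraries against 125, 127, 136, 118 and 145 CPM (-1.06, SE 0.280). Its partner Igfbp2, an insulin-like growth factor binding protein, had 53.8, 38.4 and 29.5 CPM against 96.8, 89.3, 86.3, 92.3 and 90.1 CPM (-1.16, SE 0.152). Meninges are a further known source of both. Animal 1 was again the highest of the 3 for each gene.

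Receptors, regulators and other epithelial genes had a median of -2.36 over 15, with 13 not overlapping. Otx2, the homeobox factor that maintains choroid plexus identity, had 1.93, 1.11 and 0.750 CPM in the early libraries and 8.18, 9.11, 8.32, 8.37 and 7.97 CPM in the later ones (-2.69, SE 0.229). The roof plate factor gene Lmx1a differed by -2.25, the homeobox gene Msx1 by -1.24, and the epithelial keratin genes Krt8 and Krt18 by -2.42 and -2.61. Prlr, the prolactin receptor, had 3.09, 2.22 and 2.05 CPM against 7.59, 13.7, 19.9, 16.2 and 15 CPM (-2.55, SE 0.277).

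The serotonin receptor gene Htr2c, which neurons share with the choroid plexus, had 28.3, 28.2 and 34.8 CPM in the early libraries and 30.8, 42.2, 48.1, 39 and 35.8 CPM in the later ones (-0.36, SE 0.132). Tmem72 had 43.7, 46.2 and 71.3 CPM against 51.5, 65.3, 71, 63.9 and 71.1 CPM (-0.26, SE 0.160). Both overlapped between the sets, and animal 3 was the highest early library for both.

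As Otx2 was among the lower genes, the promoters of the choroid list genes were searched for TAATCC, the core bound by Otx2, on either strand (GGATTA on the printed strand). The windows were the 250 bases before and 50 after each start in RefSeq (GRCm38.p6), and 39 of the 49 genes matched by symbol. The motif stood in the promoters of 4 of the 39 genes (10.3%) and of 8.14% of all 27025 genes with a promoter. The 4 are printed 5′ to 3′ on the gene's strand with the motif in capitals, to show where the letters lie. They come from chr3:122044210-122044509 (plus strand), chr11:105967698-105967997 (plus strand), chr7:142658755-142659054 (minus strand) and chr14:48665060-48665359 (minus strand).
Abca4: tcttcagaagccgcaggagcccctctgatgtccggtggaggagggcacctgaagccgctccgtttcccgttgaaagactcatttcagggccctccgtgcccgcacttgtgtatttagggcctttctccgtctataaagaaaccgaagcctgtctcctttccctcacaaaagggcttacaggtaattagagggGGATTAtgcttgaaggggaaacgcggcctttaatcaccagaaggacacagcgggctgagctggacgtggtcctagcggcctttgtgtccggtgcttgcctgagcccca
Ace: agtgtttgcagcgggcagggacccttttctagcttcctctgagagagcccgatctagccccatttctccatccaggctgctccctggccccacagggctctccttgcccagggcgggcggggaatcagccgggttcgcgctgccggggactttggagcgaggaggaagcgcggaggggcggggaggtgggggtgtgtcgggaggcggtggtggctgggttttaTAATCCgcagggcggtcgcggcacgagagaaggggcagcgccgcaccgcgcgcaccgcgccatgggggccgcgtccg
Igf2: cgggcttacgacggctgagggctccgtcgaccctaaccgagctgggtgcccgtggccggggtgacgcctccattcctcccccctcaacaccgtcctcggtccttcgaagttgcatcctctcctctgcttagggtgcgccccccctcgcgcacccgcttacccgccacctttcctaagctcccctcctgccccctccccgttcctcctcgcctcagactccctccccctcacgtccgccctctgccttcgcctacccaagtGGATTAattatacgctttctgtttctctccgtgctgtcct
Otx2: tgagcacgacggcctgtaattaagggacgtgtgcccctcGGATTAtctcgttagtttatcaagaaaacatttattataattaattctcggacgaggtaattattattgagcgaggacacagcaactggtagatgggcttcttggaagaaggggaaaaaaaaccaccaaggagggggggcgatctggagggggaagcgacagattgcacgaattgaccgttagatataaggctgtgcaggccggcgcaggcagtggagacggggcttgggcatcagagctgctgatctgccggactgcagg

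A match is a description of these letters. Among the 4 genes, Otx2 and Abca4 differed by -2.69 and -2.57 between the early and later GH libraries and Ace, the angiotensin-converting enzyme gene, by -1.85, while the value for Igf2 was -1.06. The windows of Slc4a5, Kcne2 and Aqp1 were among those searched and held no match.

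Cells that lie next to the choroid plexus differed less between the 2 sets of GH libraries. Ependyma, the ciliated lining of the ventricles, had a median difference of -0.51 over 12 genes, of which 3 lay below without overlap, where 3.3% of all genes did. Mia1, for a secreted protein, had 2.50, 1.76 and 1.68 CPM against 4.05, 3.71, 3.08, 3.31 and 4.19 CPM (-0.87). The cilium genes Dynlrb2 (-0.92) and Tekt1 (-0.76) also did not overlap, while Foxj1, the master regulator of motile cilia, did (-0.44). The summed level of the ependymal list was 43 to 63.4 CPM in the early libraries and 60.4 to 77.1 CPM in the later ones. Among the females, 7 of the 12 ependymal genes had a positive slope on the choroid index (edgeR adjusted p under 0.05, median slope 0.39), where 7.2% of all genes did. Their median difference in SI males was -1.06, with 4 below and 1 above without overlap, where 16.6% and 16.8% of all genes lay so.

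Meningeal and fibroblast genes had a median of -0.24 over 13, and all 13 overlapped. Their summed level was 102 to 205 CPM in the early libraries and 128 to 183 CPM in the later ones. Among the females, 7 of the 13 had a positive slope on the choroid index (edgeR adjusted p under 0.05, median slope 0.34), where 7.2% of all genes did. Their median difference in SI males was -0.29. In the capillaries, the fenestrated endothelium gene Plvap had 8.56, 7.95 and 7.30 CPM against 10.5, 9.09, 9.48, 10 and 9.39 CPM (-0.28), a small difference without overlap. The list of 4 fenestrated endothelium genes had a median of -0.10, and Esm1 (-0.27), Nostrin (0.20) and Ppap2b (0.06) overlapped. In the females the slope of Plvap on the choroid index was -0.06 and did not pass. The general list of endothelial and mural cell genes had a median of 0.03 over 15 and no gene that separated the sets.

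Markers of the hippocampus itself had medians near that of all genes. They were 0.09 for 7 dentate granule cell genes, 0.04 for 7 CA1 genes, 0.07 for 5 CA3 genes, 0.08 for 9 interneuron genes, 0.09 for 9 astrocyte genes, -0.03 for 10 oligodendrocyte genes and 0.05 for 9 microglial genes. Of these genes, Pvrl3 (Nectin3, an adhesion molecule of CA3 mossy fibre synapses) was the one whose sets did not overlap. It had 34, 34.3 and 34.8 CPM against 28.0, 30, 29.1, 33.4 and 32.9 CPM (0.17). Over all genes, 3.3% lay below without overlap and 1.76% above. Genes of neighbouring thalamus and habenula (median 0.09 over 12), striatum (0 over 7) and neocortex (0.10 over 7) also lay near the median of all genes. In striatum the dopamine signalling gene Ppp1r1b did not overlap (-0.40).

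**Figure D3:**
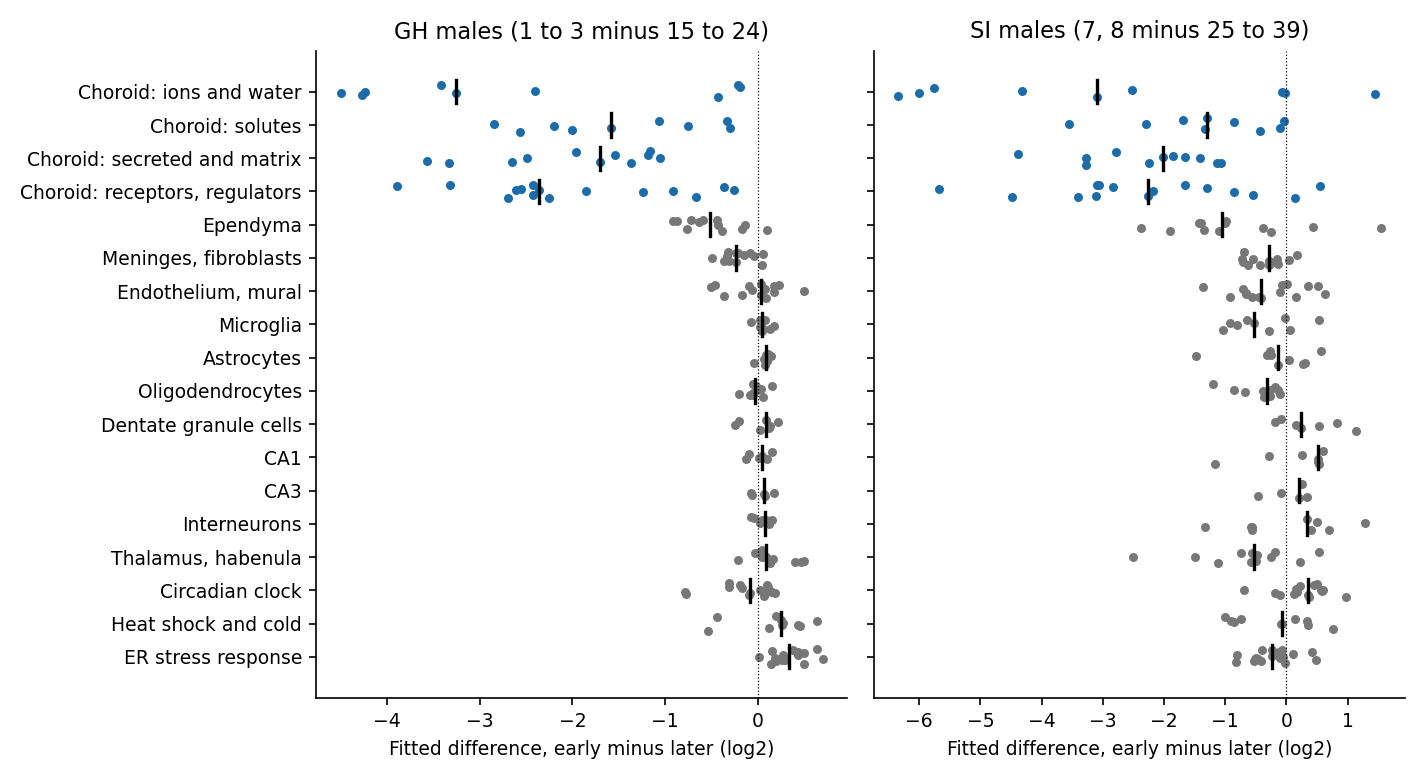
Fitted early-minus-later difference (log2, linear axis) of each gene of 18 lists, 1 point per gene with a black bar at the list's median, in GH males (left) and SI males (right, other scale). The 4 choroid lists, in blue, have medians from -3.26 to -1.58 in GH males, while every other list in grey has a median between -0.51 and 0.33.

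Over the whole table, 145 genes (0.888% of the 16322) lay lower in all 3 early libraries with a difference of at least 1 on the log2 scale. Only 1 gene (0.00613%) lay higher by as much, the olfactory receptor gene Olfr1423. Its level was very low, with means of 0.238 CPM in the early libraries and 0.107 CPM in the later ones. Of the 145, 37 were choroid list genes, markers included, and 108 were outside the lists, with a median of -1.68. The fit called 132 genes lower and 3 higher (0.809% and 0.0184% of all genes, with 6.34% at an unadjusted p under 0.05), and 94 of the 132 were outside the lists. These counts describe the chosen split and support nothing further.

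Outside the lists, the 10 genes with the largest lower values among genes with a mean of at least 1 log2 CPM were Mfrp, Ccdc135, Col8a2, Epn3, Npcd, Tuba1c, Sema3b, Slc24a5, Itpripl1 and Angptl2. Mfrp, a membrane frizzled-related protein gene best known from eye growth, had 1.81, 1.09 and 0.705 CPM in animals 1, 2 and 3 and 17, 20.2, 24.9, 20.4 and 17.1 CPM in the later libraries (-4.01, SE 0.245). Ccdc135, of the cilium, had 4.03, 2.27 and 1.41 CPM against 8.95, 9.98, 14.2, 11.7 and 9.24 CPM (-2.05, SE 0.279). Col8a2, a collagen chain gene, had 5.01, 1.75 and 1.39 CPM against 8.39, 10.2, 13.5, 9.91 and 10.7 CPM (-1.93, SE 0.345). The endocytic adaptor gene Epn3 (-1.78), the tubulin gene Tuba1c (-1.67), the guidance cue gene Sema3b (-1.55) and the secreted factor gene Angptl2 (-1.31) had smaller differences, and Wfdc2, a secreted protease inhibitor family gene outside this rule because of its low mean, had -3.84.

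The 10 genes with the largest higher values reached no more than 0.70 on the log2 scale. They were Sdf2l1, Gm4070, Hspa5, Zbtb40, Mkks, Angptl4, Hist1h2be, Xbp1, Creld2 and Banp. Of them 4 (Sdf2l1, Hspa5, Xbp1 and Creld2) belong to the stress response of the endoplasmic reticulum (ER). Hspa5, the ER chaperone BiP, had 316, 349 and 222 CPM in animals 1, 2 and 3 and 170, 173, 221, 214 and 176 CPM in the later libraries (0.64, SE 0.141). Sdf2l1, an ER chaperone cofactor, had 25.7, 30.6 and 17.1 CPM against 15.7, 13.6, 15.8, 15.8 and 14.6 CPM (0.70, SE 0.147). Animals 1 and 2 stood well above the later mice for both genes, while animal 3 was only just above the highest of them.

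Xbp1, the transcription factor of the unfolded protein response, had 86.1, 94.5 and 71 CPM in the early libraries and 59.7, 58.8, 61.2, 63.3 and 55.2 CPM in the later ones (0.50, SE 0.0894). Creld2, an ER stress-inducible gene, had 20.1, 22.4 and 14.5 CPM against 14.5, 14.0, 13, 14.4 and 11.8 CPM (0.50, SE 0.127). Over 18 ER stress response genes, a list chosen after these values were seen, the median was 0.33 with a range of 0.01 to 0.70. Of the 18, 4 lay above without overlap, where 1.76% of all genes did, and these 4 are the genes that prompted the list. The order of these genes among the early libraries was unlike that of the choroid genes, with animal 2 above animal 1 in all 4.

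The 4 genes were also read in the other groups. In SI males 7 and 8, Hspa5 had 200 and 233 CPM against 189 to 250 CPM in the 5 later SI males, and Sdf2l1 had 10.4 and 19.4 CPM against 21.7 to 29.7 CPM, lower in both. Over the 18 genes the median was -0.23 in SI males, and in the females the median slope on the choroid index was 0.00. Hspa5 was at 166 to 211 CPM in the GH females (median 192, n = 7).

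**Figure D4:**
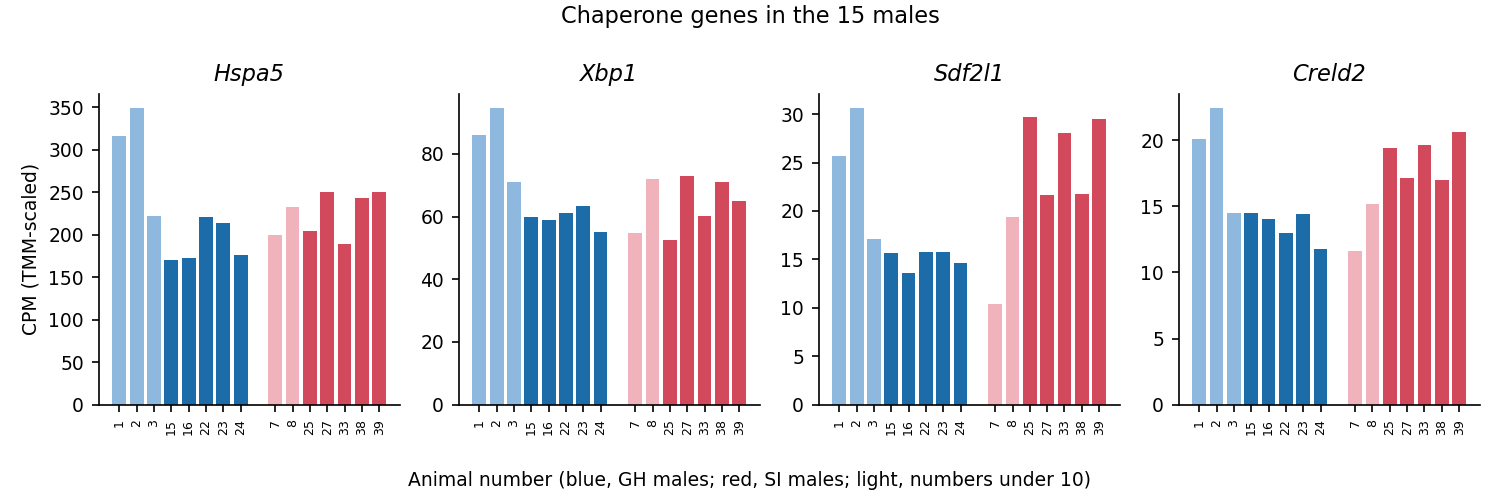
CPM (TMM-scaled, linear axes from 0) of 4 ER stress response genes in the 8 GH males (blue) and 7 SI males (red), 1 bar per mouse, light for animal numbers under 10. The light blue bars lie above the dark blue ones, with Hspa5 at 222 to 349 against 170 to 221 CPM, while the light red bars of Sdf2l1 and Creld2 lie below the dark red ones.

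Of the other lists, circadian clock genes had a median of -0.08 over 15 and 2 that lay below without overlap, where 3.3% of all genes did. Dbp, a clock output factor, had 57.3, 49.7 and 52.8 CPM in the early libraries and 140, 114, 68.7, 68.3 and 72 CPM in the later ones (-0.79). Gm129 (Ciart), a clock repressor gene, had 4.84, 4.76 and 5.95 CPM against 13.7, 11.6, 6.53, 6.46 and 6.32 CPM (-0.77). Animals 15 and 16 were the highest for both genes, and the other 3 later libraries lay close to the early ones.

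Immediate early genes, markers of recent neuronal activity, had a median of -0.19 over 12 and all overlapped. The 10 glucocorticoid response genes had a median of -0.08, with a range of -1.23 to 0.31. Of them 1 lay below without overlap, where 3.3% of all genes did. It was Sgk1, at 36, 37.8 and 38.2 CPM against 55.3, 81.1, 45.3, 47.3 and 45.2 CPM. The 10 heat shock and cold genes had a median of 0.26, with a range of -0.54 to 0.64, and the fit called 0 of them. Of the 10, 1 lay below without overlap and 2 above, where 3.3% and 1.76% of all genes did. The 1 below was Cirbp, a cold-inducible RNA binding protein gene, with 58.6, 49.4 and 52.9 CPM against 87.4, 70.1, 62.3, 72.3 and 73.5 CPM (-0.44). The 2 above were Hspa5 and the heat shock gene Hspa1b, which had 30.4, 29.6 and 24.7 CPM against 18.8, 22.1, 24.5, 24.2 and 12.9 CPM (0.46). Ribosomal protein genes had a median of 0.01 over 78, and transcript length did not move with the split either, since both the 3803 genes with the shortest and the 3804 with the longest transcripts had a median of 0.01.

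The same choroid genes were then read in SI males 7 and 8 against 25, 27, 33, 38 and 39. The median over the 44 list genes was -2.09, and 36 of them lay lower in both early libraries, but the separation of single genes was common here, at 16.6% of 15869 genes below and 16.8% above. The test called 20 genes lower (0.126%) and 0 higher at adjusted p under 0.05 (edgeR quasi-likelihood test), where 4182 genes (26.4%) had an unadjusted p under 0.05. DESeq2 called 203 lower and 101 higher. The 20 were Ttr, Folr1, Clic6 and Enpp2 of the 5 markers, 15 of the 44 other list genes, and Wfdc2.

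Kcne2 was at 0.164 and 0.154 CPM in SI males 7 and 8, against 8.51 to 18.1 CPM in the later ones (-6.34, edgeR adjusted p = 0.00805). Aqp1 had 0.226 and 0.0514 CPM against 7.79 to 13.9 CPM (-6.00, edgeR adjusted p = 0.00805), and Otx2 had 0.966 and 0.977 CPM against 4.28 to 9.54 CPM (-3.06, edgeR adjusted p = 0.0182). Slc4a5 had 0.164 CPM in animal 7 and 0 counts in animal 8, against 4.0 to 8.76 CPM (edgeR adjusted p = 0.0176). Kl, at 17.3 and 13.5 CPM against 22.2 to 47.3 CPM, did not pass (-1.17, edgeR adjusted p = 0.183). Igf2 did not pass either (-1.07, edgeR adjusted p = 0.183), and Atp2b3 was higher in the early SI libraries without passing (1.45, edgeR adjusted p = 0.202).

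These calls rested on few libraries. Leaving out animal 7 or 8 left 0 calls, with 1 early mouse assumed to vary like the others, while leaving out animal 27 gave 220 lower and 598 higher. SI males 25, 33 and 39 stood apart from the other males in ribosomal protein genes, which took 4.08%, 3.72% and 3.16% of their counts, against 1.17% to 1.76% in the other SI males and 1.20% to 2.08% in the GH males. Of the 3803 genes with the shortest transcripts and the 3804 with the longest, those also tested in SI males had medians of -0.61 and 0.47 there. Without these 3 mice together the test called 73 genes lower and 3 higher, with 28 of the 44 choroid genes among the lower. The part of transcript length in the other SI differences was not tested.

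In the 15 females, where animal number does not divide the libraries, each gene was fitted on the choroid index with housing as a covariate. All 44 choroid list genes had a positive slope that passed the test (edgeR adjusted p under 0.05), with a median of 0.84 log2 per index unit against 0 over all genes, while 7.2% of the 16539 genes tested passed with a positive slope and 8.87% with a negative one, and 33.8% had an unadjusted p under 0.05. Slc4a5 and F5 had the steepest slopes, 1.25 (edgeR adjusted p = 4.53e-11) and 1.23 (edgeR adjusted p = 7.58e-10), followed by Abca4 and Cldn2 with 1.08 each. Otx2 had a slope of 0.89 (edgeR adjusted p = 7.44e-07), with 3.63 to 22 CPM in the GH females and 6.53 to 15.5 CPM in the SI females.

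The 7 list genes that overlapped in the GH males had slopes of 0.27 to 0.80, each past the test. Wfikkn2 had 0.80, Slc13a4 0.76, Car12 0.62, Atp2b3 0.49, Htr2c 0.42, Tmem72 0.39 and Slc22a8 0.27. Some genes that did not overlap had slopes as low, such as Slc31a1 with 0.46, Cab39l with 0.41 and Slc12a4 with 0.20. In the GH females, animal 71 had the highest index (8.52) and animal 78 the lowest (5.90), and Aqp1 was at 36.3 and 5.24 CPM in these mice. Female library 78, with the least choroid signal of the 15, still had more Aqp1 than any early male, whose highest value was 1.15 CPM.

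**Figure D5:**
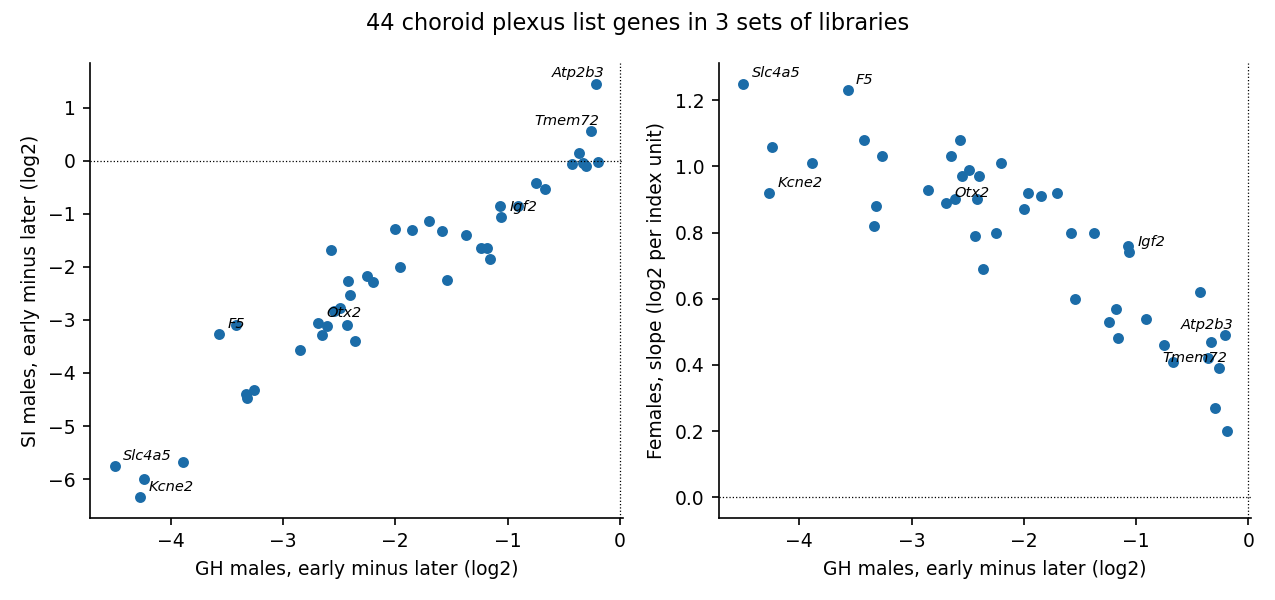
Fitted early-minus-later difference in GH males (log2, x axis of both panels) of the 44 choroid list genes, against the same difference in SI males (left) and the slope on the choroid index in females (right, log2 per index unit), 1 point per gene. All 44 slopes lie above 0. Of the genes nearest 0 in GH males, Atp2b3 (1.45), Tmem72 (0.55) and Htr2c (0.14) lie above 0 in SI males. Slc12a4 (-0.03), Slc22a8 (-0.11), Slc29a4 (-0.04) and Car12 (-0.07) lie just below.

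The genes lower in the early GH males could thus be followed in libraries the choice did not use. Of the 127 called lower that were tested in both, 121 (95.3%) had a positive slope that passed in the females, where 7.2% of all 16539 genes did. They were 10.3% of the 1172 genes with such a slope. Positive slopes fell from 1190 to 385 with an index of Ttr alone and to 331 in GH females only, and the overlap was not recounted there. Outside the choroid lists it was 88 of 94, with a median slope of 0.60. Mfrp had a slope of 1.19 (edgeR adjusted p = 2.16e-10), Ccdc135 and Col8a2 of 0.96 each, Sema3b of 0.81 and Epn3 of 0.75. Among the genes with the smallest p were also Rbm47, an RNA binding protein gene (1.10), the metalloreductase gene Steap2 (0.63), the tight junction gene Tjp3 (0.69), the anion exchanger gene Slc4a2 (0.49), the imprinted cell cycle inhibitor gene Cdkn1c (0.57) and the mitochondrial carrier gene Ucp2 (0.37).

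Of the genes called lower in the GH males without a positive call in females, Ubxn11, Gpx8 and Fam132a had differences of -0.53, -0.79 and -0.53 and slopes of 0.07, 0.27 and 0.07. The other 3, Mc3r, Sh3rf2 and Ren1, had later means of 0.289, 0.576 and 0.222 CPM and few counts behind them. Xbp1, Zbtb40 and Cbfa2t3, the 3 genes called higher, had slopes of -0.07, 0.05 and 0.08 in females, and none passed.

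In SI males, 72 of 86 of the called genes outside the choroid lists lay lower in both early libraries, where 16.6% of all genes lay below and 16.8% above, and 1 of them passed the test, Wfdc2, with 2 counts in each of animals 7 and 8 and 56 to 174 in the later ones (edgeR adjusted p = 0.0495). Npcd, lower in the early GH males at 1.30, 1.30 and 1.86 CPM against 2.03 to 6.45 CPM, lay higher in SI males 7 and 8 (2.01 and 3.19 CPM against 0 to 1.61 CPM). The 10 genes with the smallest p for a negative slope in females were not among those that separated the GH males. Rps27, a ribosomal protein gene, had a slope of -0.54 and a GH male difference of -0.06, and Pvalb, the parvalbumin gene of fast-spiking interneurons, had -0.40 and 0.15. Both slopes turned positive over the 22 libraries that the choice did not use, but neither passed there. They were 0.20 for Rps27 (edgeR adjusted p = 0.357) and 0.16 for Pvalb (edgeR adjusted p = 0.326). Of 77 ribosomal protein genes tested in females 63 had a negative slope past the test, where 8.87% of the 16539 genes tested did. None of the 78 fitted in GH males separated the sets, and whether the females and the GH males differ in this was not tested. The median slope in females was -0.11 for genes with the shortest transcripts and 0.09 for those with the longest. With length and GC trends removed, 760 genes had a negative slope past the test. The negative slopes depended on how the index and the libraries were taken, since 23 genes passed with an index of Ttr alone and 26 over the 22 libraries that the choice did not use, against 1467 in the 15 females with the index of 5 markers, and without GH female 78 there were 140.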

How the data were processed

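RNA-seq of mouse hippocampus gave 1 library per animal, 30 in all. The authors trimmed reads with Trimmomatic 0.39, quantified them with Salmon 1.8.0 and deposited 1 table of whole-number counts for 17477 genes with at least 100 counts each, without normalization. The processing notes name GRCm39, and the annotation is not given in the sources used here. Symbols matched 16439 genes (94.1%), and 28 rows share a symbol with another row. 0 columns had no sample. Salmon shares reads between near-identical copies, so such genes are uncertain, and whether strand was used is not given in the sources used here.

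Fits used edgeR 4.0.16 in R 4.3.3 (filterByExpr with minimum count 10, TMM, glmQLFit, glmQLFTest, Benjamini-Hochberg over all genes tested). Log2 CPM used a prior count of 2. GH males were fitted as 3 against 5, SI males as 2 against 5, and females by their slope on the choroid index with housing. The index genes were left out of the female counts. P-values of the fits set each effect against the spread between these mice. They take the mice as independent, although cages and litters are not known.

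The members and the gene lists were chosen with earlier results of these data known, and the ER stress list after its values were seen. The result of 1 list gene is not reported here. Genes named outside the lists are the 10 with the largest difference per direction among non-overlapping genes with a mean of at least 1 log2 CPM in GH males, and the 10 with the smallest p per direction in females. Alternatives were DESeq2 1.42.0, its size factors, other filters, surrogate variables (sva 3.50.0), limma-voom 3.58.1 with sample weights, removal of length and GC trends (lowess, span 0.3; 15964 genes, 91.3%, had a length), other indices, other sets of libraries and leaving out each library.

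On simulated counts with 200 changed genes, 191 were recovered in the GH design among 16322 genes at a log2 change of 2 with 5.45% false calls. In the SI design 165 were recovered among 15869 genes at the same change with 6.25% false calls, and 169 in the female design among 16544 genes at a slope of 0.5 with 5.06%. Total counts were 18809307 to 100844898 per library.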

Additional observations from a re-analysis of the deposited data

Results flagged for a closer look

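Of 84 sets of values checked in groups of 4 to 10 libraries, 4 held a library far from the others, which is about what chance gives (1 in 20). Sema3b was high in GH male 22 among the later libraries, at 3.59 log2 CPM. Gm4070 was low in GH male 16, at 0.80 log2 CPM. ENSMUSG00000097891 was high in GH female 78, at -1.25 log2 CPM against -4.44 in the GH female with the lowest value, and it is among the genes with the smallest p for a negative slope in females. Rps27 was high in SI female 53, at 7.01 log2 CPM.

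In 4 named genes all early GH males lay on one side of the later ones and both early SI males on the other. Separation was common in SI males, at 16.6% of 15869 genes below and 16.8% above, against 3.3% and 1.76% in GH males. Npcd differed by -1.72 on the log2 scale in GH males and by 2.12 in SI males. Sdf2l1 differed by 0.70 and -0.81, Creld2 by 0.50 and -0.49, and Banp by 0.46 and -0.50. The difference between the housing groups was not tested.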

How the results depend on the processing

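The 3.3% of genes with no overlap and any difference are 539, and 288 lay above, against 145 and 1 with a difference of at least 1. With at least 10 counts in every library these were 81 and 0. Higher genes with no overlap and a difference of at least 1 numbered 10 without a filter, 7 in a fit of all 15 males, 2 with DESeq2 and 2 with surrogate variables. Genes called higher in early GH males (3) numbered 19 with DESeq2, 14 with surrogate variables, 6 with length and GC trends removed and 0 with all 15 males. Leaving out each GH male gave 84 (without animal 2) to 135 genes called lower, 0 to 13 higher (13 without animal 3, and 0 without animal 2, 15, 23 or 24), 137 to 267 separated lower (267 without animal 1) and 1 to 15 separated higher (15 without animal 3). Choroid list genes called lower were 32 to 37.

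In SI males, genes called lower (20) numbered 203 with DESeq2, 57 with surrogate variables, 34 with length and GC trends removed, 11 with at least 10 counts in every library and 73 without animals 25, 33 and 39. Genes called higher (0) numbered 101, 1 and 3 with DESeq2, surrogate variables and without those 3 animals. Choroid list genes called (15) numbered 32, 27, 7 and 28 with DESeq2, surrogate variables, at least 10 counts and without those 3 animals. Leaving out each SI male gave 0 (without animal 7 or 8) to 220 lower and 0 to 598 higher (220 and 598 without animal 27), with 0 to 26 choroid genes. The index difference of -3.51 was -6.93 with Ttr alone and -3.93 without Enpp2, at the same smallest p of 0.0952, and -3.62 to -3.41 without each library. With animal 7 or 8 left out it had no test.

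In females, positive and negative slopes (1190 and 1467) numbered 385 and 23 with an index of Ttr alone, 331 and 25 in GH females only, and 332 and 26 over the 22 libraries not used by the choice. Negative slopes numbered 760 with length and GC trends removed. Leaving out each female gave 448 to 2369 positive (448 without animal 71, 467 without 78, 673 without 63 and 2369 without 79) and 140 to 2285 negative (140 without animal 78, 477 without 71, 587 without 63, 843 without 45 and 2285 without 79), with 42 to 44 choroid genes. Over the 22 libraries 9 of the 10 named negative slopes turned positive, to 0.44 (ENSMUSG00000097891), 0.20 (Rps27), 0.16 (Pvalb), 0.06 (Rhbdl1), 0.06 (Gtpbp6), 0.09 (AI413582), 0.16 (Lsm3), 0.05 (Cst6) and 0.13 (ENSMUSG00000093954). None of these 9 positive slopes passed (edgeR adjusted p of 0.232 to 0.828). The cause of these changes was not tested.

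No paired analysis was possible because the labels number animals and no number is shared between groups. With 2 early SI males and 3 early GH males, and no dates or cages in the labels, animal number and the conditions that go with it cannot be told apart from the choroid signal.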
